A study of Rattus norvegicus with 6 samples.

Results

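The table of tRFs (tRNA-derived fragments) from rat fat lists 65535, numbered from 1, of which 43783 had a count in at least 1 library. Any tRF numbered above these was not analysed here and enters none of the totals. Among the listed tRFs, 81 were seen on one diet only, 33 of them in the HFD (high fat diet) libraries and 48 in the LFD (low fat diet) libraries. They were chosen by their counts. A member reached 5 counts in 2 or 3 of the 3 libraries of one diet and had 0 counts in all 3 libraries of the other, and the 150 tRFs from tRF00043550 to tRF00043699 were left out. The absence from one diet is therefore what chose them and is given here as a description, with no test. The HFD group were male Sprague Dawley rats fed a diet with 40% fat for 100 days from 6 weeks of age, and the LFD group were males of the same strain, age and feeding time on normal chow. Each group has 3 small RNA libraries, from fragments of 15 to 40 nt. The study fed 8 rats per diet and took perirenal fat, and whether each library is another rat is not stated, so the spread between them may be technical. The labels name heart in one field and adipose in another and state an age of 8 weeks, and a table of tRNA fragments holds no tissue marker with which to check this.

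tRFs are cut from precursor or mature tRNAs by nucleases, among them angiogenin, which cleaves in the anticodon loop and is active under stress, and Dicer, which releases some of the shorter kinds. Some tRFs are loaded into Argonaute proteins and repress transcripts in the manner of miRNAs, and others slow translation. Cleavage at many positions of many tRNAs gives a few very abundant fragments and a long tail of rare ones. The table names its tRFs by number alone and pairs the numbers with neither sequences, lengths nor parent tRNAs, so no sequence is shown and no role can be given to a single member.

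The libraries differed in depth, with total counts from 5751653 to 12180060 in HFD and from 1322760 to 9729804 in LFD, or 28857784 in HFD and 15698252 in LFD when pooled. The members were rare at any depth. The 33 HFD-only tRFs summed to 631 counts, or 0.00219% of the HFD total, and the 48 LFD-only tRFs to 1824 counts, or 0.0116% of the LFD total. A count of 0 in all libraries of a diet allows up to 3 counts over the group, which is 0.104 CPM (counts per 1000000 counts of the library) in HFD and 0.191 CPM in LFD. By library that limit was 0.246, 0.275 and 0.522 CPM in HFD 1, HFD 2 and HFD 3, and 2.27, 0.646 and 0.308 CPM in LFD 1, LFD 2 and LFD 3. These limits account for counting error alone, because they rest on the same 3 counts whatever the spread between libraries. They also leave out any PCR copies among the reads. The limit of LFD 1 lay above the mean CPM of all 33 HFD-only tRFs, so a count of 0 in LFD 1 does not exclude a level equal to that in HFD. The limit of LFD 2 lay below the mean CPM of 11 of the 33, and that of LFD 3 below 32 of the 33. The mean CPM of all 48 LFD-only tRFs lay above the limit of each HFD library. The rule and the library totals fix this in advance, because the lowest counts the rule allows in LFD give a mean CPM above each of these limits. It therefore cannot be set against the values for the HFD-only tRFs, and nothing is read from it.

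The HFD-only tRFs had 10 to 48 counts over the 3 HFD libraries (median 17). tRF00047346 was the highest of them, at 15 counts in HFD 1, 12 in HFD 2 and 21 in HFD 3, against 0 in each LFD library. Its mean was 1.99 ± 1.44 CPM (SD, n = 3) in HFD, and its pooled level was at least 8.70-fold higher in HFD than in LFD, where the bound sets its pooled CPM against the 3 counts that 0 allows. The bound leaves out the counting error of the HFD counts, and the members were chosen for their 0 counts. This bound and all those below therefore describe the counts and are no guaranteed minimum. Leaving out HFD 3, its highest library, the bound was 6.11. tRF00022168 had 7, 10 and 10 counts in the HFD libraries against 0 in each LFD library (1.08 ± 0.598 CPM in HFD, SD, n = 3, at least 4.90-fold higher). Scaled to depth it was uneven, at 0.575, 0.915 and 1.74 CPM in HFD 1, HFD 2 and HFD 3. tRF00059098 had 13, 5 and 5 counts in the HFD libraries against 0 in each LFD library (0.798 ± 0.311 CPM in HFD, SD, n = 3, at least 4.17-fold higher). These 3 were the only HFD-only tRFs with 5 or more counts in every HFD library.

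Most of the other HFD-only tRFs had their highest CPM in HFD 1 or HFD 2. The exceptions were tRF00037595, with 0.246, 0.458 and 0.869 CPM in HFD 1, HFD 2 and HFD 3, and tRF00050214, with 0.657, 0.641 and 0.695 CPM, both named after their values were seen. For tRF00039936 there were 34 counts in HFD 1, 8 in HFD 2 and 0 in HFD 3, against 0 in each LFD library, and its bound of 7.62-fold was 2.51-fold without HFD 1. tRF00039937, the next number, had 25, 7 and 3 counts in HFD against 0 in each LFD library, with a bound of 6.35-fold and 3.14-fold without HFD 1. tRF00007046 had 11, 21 and 2 counts in HFD against 0 in each LFD library (at least 6.17-fold higher, and 3.79-fold without HFD 2). All 3 were thus lowest in HFD 3. tRF00022822 had 6, 17 and 2 counts in HFD against 0 in each LFD library, and its bound of 4.53-fold was 2.33-fold without HFD 2. tRF00063616 had 19, 6 and 1 counts in HFD against 0 in each LFD library, and its bound of 4.71-fold was 2.20-fold without HFD 1. tRF00006768 had 10, 5 and 3 counts and tRF00006886 had 11, 6 and 0 counts in HFD, against 0 in each LFD library for both. Over all 33, the bound ran from 1.81-fold to 8.70-fold (median 3.08). All 33 had a count in HFD 1 and in HFD 2, and 21 had one in HFD 3. The highest count was in HFD 1 for 23 of the 33, in HFD 2 for 9 and in HFD 3 for 1. Scaled to depth, HFD 1 was highest for 17, HFD 2 for 12 and HFD 3 for 4. The summed level of the 33 was 25.7, 21.6 and 14.3 CPM in HFD 1, HFD 2 and HFD 3.

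The LFD-only tRFs had 10 to 159 counts over the 3 LFD libraries (median 26), and most of these counts came from LFD 3. tRF00022694 was the highest, with 0 counts in each HFD library, against 1, 7 and 151 counts in LFD 1, LFD 2 and LFD 3. Its mean in LFD was 5.93 ± 8.32 CPM (SD, n = 3). Its pooled level was at least 97.4-fold higher in LFD than in HFD, and at least 12.9-fold higher without LFD 3. tRF00056066 had 0 counts in each HFD library, against 2, 7 and 100 in the LFD libraries (at least 66.8-fold higher in LFD, and 14.5-fold without LFD 3). tRF00053155 had 0 counts in each HFD library, against 3, 11 and 93 in the LFD libraries (at least 65.6-fold higher in LFD, and 22.6-fold without LFD 3). The level in LFD 3 set most of each bound. The rest, from LFD 1 and LFD 2, lay above the limit of HFD. The rule and the library totals fix this in advance, because a member highest in LFD 3 must also reach the minimum in LFD 1 or LFD 2. It is therefore a description only.

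tRF00039726 had 0 counts in each HFD library, against 1, 10 and 88 in the LFD libraries (at least 60.7-fold higher in LFD, and 17.7-fold without LFD 3). tRF00047232 had 0 counts in each HFD library, against 5, 10 and 82 in the LFD libraries (4.79 ± 3.26 CPM in LFD, SD, n = 3). It was the only LFD-only tRF with at least 5 counts in every LFD library, and its bound of 59.4-fold was 24.2-fold without LFD 3, the highest of the 48 once each lost its highest library. tRF00022711 had 0 counts in each HFD library, against 0, 5 and 67 in the LFD libraries, and its bound of 44.1-fold was 8.06-fold without LFD 3. tRF00022554 had 0 counts in each HFD library, against 0, 10 and 56 in the LFD libraries (40.4-fold, and 16.1-fold without LFD 3). tRF00041825 had 0 counts in each HFD library, against 1, 5 and 64 in the LFD libraries (42.9-fold, and 9.67-fold without LFD 3). tRF00003404 had 0 counts in each HFD library, against 0, 7 and 29 in the LFD libraries, and its bound of 22.1-fold was 11.3-fold without LFD 3. At the low end, tRF00001807 had 0 counts in each HFD library, against 5, 5 and 0 in the LFD libraries. It and tRF00030401 (5, 6 and 0 counts in the LFD libraries), which was chosen after its values were seen, were the only LFD-only tRFs at 0 in LFD 3. Over all 48, the bound ran from 6.13-fold to 97.4-fold (median 15.9). When each tRF lost its highest library, the bound ran from 3.35-fold to 24.2-fold (median 11.3). Both low ends follow from the rule and the library totals. All 48 had a count in LFD 2, 46 in LFD 3 and 17 in LFD 1. LFD 3 held 79.6% of their counts, beside 62.0% of the LFD total, and was the highest library for 44 of 48 in counts and for 33 of 48 in CPM. The summed level of the 48 was 24.9, 73.2 and 149 CPM in LFD 1, LFD 2 and LFD 3.

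Both counts were a small part of the tRFs that could have met the rule. Of the 4430 tRFs with at least 5 counts in 2 HFD libraries, 33 were at 0 in LFD (0.745%), and of the 4259 with at least 5 counts in 2 LFD libraries, 48 were at 0 in HFD (1.13%). The share changed with the number of counts. The same number of counts is a different abundance on each diet, because the pooled totals were 28857784 in HFD and 15698252 in LFD. The shares of HFD and LFD below are therefore not at like abundance. Among tRFs with 10 to 19 counts in their diet, 23 of 582 in HFD (3.95%) and 12 of 537 in LFD (2.23%) were at 0 in the other diet. Among those with 20 to 49 counts it was 10 of 1402 in HFD (0.713%) and 28 of 1232 in LFD (2.27%). With 50 counts or more there was none in HFD, and in LFD there were 5 of 753 with at least 50 and under 100 counts and 3 of 550 with at least 100 and under 200. No such tRF with 200 or more counts in its diet was missing from the other. At the pooled share of its own diet, an HFD-only tRF would have had a median of 9.25 counts in LFD (5.44 to 26.1), and an LFD-only tRF a median of 47.8 counts in HFD (18.4 to 292). The low ends follow from the minimum of 5 counts in 2 libraries and the pooled totals. These values rescale the counts that chose the members, so they are a description and support nothing.

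The threshold cut through a dense part of the counts. In 17 HFD-only and 19 LFD-only tRFs the second highest library had exactly 5 counts, as in tRF00006768 and tRF00001807. Just outside, 43 tRFs had 0 counts in LFD and a second highest HFD count of 4, such as tRF00003094 with 2, 5 and 4 counts in the HFD libraries. The mirror group held 35 tRFs, such as tRF00000684 with 0 counts in HFD against 0, 4 and 4 in the LFD libraries. More tRFs missed the rule by a single count in the other diet than met it. There were 94 of these on the HFD side, where the count lay in LFD 1 for 27, LFD 2 for 40 and LFD 3 for 27, and 70 on the LFD side, where it lay in HFD 1 for 46, HFD 2 for 8 and HFD 3 for 16. tRF00000325 had 10, 5 and 2 counts in HFD against 1, 0 and 0 in LFD. tRF00000812 had 1, 0 and 0 counts in HFD against 0, 13 and 137 in LFD, more in LFD than all but 1 of the LFD-only tRFs.

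The numbers of members depended on depth. With every library thinned at random to 1322760 counts, the total of LFD 1, the same rule gave a median of 1 HFD-only tRF (0 to 3 over 20 draws) and 66.5 LFD-only tRFs (49 to 77). None of the HFD-only tRFs of a draw was among the 33, and 1 to 4 of the LFD-only tRFs of a draw were among the 48. At equal totals the rule thus picked other tRFs, and LFD-only tRFs outnumbered HFD-only tRFs in every draw. Thinning only removes counts, so a tRF picked in a draw that is not among the 81 had counts on both diets before thinning. Nearly all tRFs picked in the draws were of this kind and were not absent from the other diet. The totals include tRF00041773, which had 5228521, 5898191 and 2373315 counts in HFD, against 347015, 704632 and 927240 in LFD. Equal totals therefore did not leave equal counts for the other tRFs, and CPM rests on the same totals. The part of tRF00041773 in these numbers was not tested. With a minimum of 1 CPM in place of 5 counts, 1 tRF was HFD-only and 51 were LFD-only, 41 of them among the 48. This minimum is stricter than 5 counts in each HFD library and in LFD 3, and looser in LFD 1. The 0 counts asked of the other diet were not scaled, so these numbers are not corrected for depth. The numbers also turned on single libraries. Without HFD 1 or HFD 2, with 5 counts then needed in both remaining HFD libraries, 4 and 3 tRFs were HFD-only, against 32 without HFD 3. Without LFD 1, LFD 2 or LFD 3, in which a 0 is then no longer asked for, 80, 101 and 86 were HFD-only. Without LFD 2 or LFD 3 the LFD-only count was 1 and 3, against 46 without LFD 1, and without HFD 1, HFD 2 or HFD 3 it was 189, 61 and 81. LFD 3 also stood apart in tRFs seen in 1 library only: 207 tRFs had at least 5 counts in LFD 3 and 0 in the other 5 libraries, beside 13, 8 and 16 such tRFs for HFD 1, HFD 2 and HFD 3, and 4 and 20 for LFD 1 and LFD 2. The part of LFD 3 in the LFD-only tRFs beyond these values was not tested.

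Few members reached a test across the whole table. edgeR's quasi-likelihood test took in the 3200 tRFs that reached 10 counts in 3 or more libraries, a minimum that no LFD-only tRF and 1 HFD-only tRF, tRF00047346, fulfilled. edgeR called 0 of the 3200 at an adjusted p of 0.05 (0%) and thus 0 of 1 member, whereas tRF00047346 was among the 651 with an unadjusted p under 0.05. DESeq2 called tRF00047346 higher in HFD, among 628 of the 3200 (19.6%). Without a count minimum, edgeR tested all 81 members among 43783 tRFs and called 48 of these (0.11%), of which 5 were members. They were tRF00022694, tRF00039726, tRF00047232, tRF00053155 and tRF00056066, the 5 LFD-only tRFs with the highest mean CPM, all lower in HFD. None of the 33 HFD-only tRFs was called in that fit. The rule used the same contrast, so nothing is read from these calls.

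The numbers of the members were spread over most of the table, from 6768 to 65291 in the HFD-only and from 1807 to 62610 in the LFD-only tRFs. What the order of the numbers stands for is not given in the sources used here. Within 10 numbers of another member of the same diet lay 4 of the 81 members, the adjacent HFD-only tRF00039936 and tRF00039937 and the LFD-only tRF00041822 and tRF00041825. Within 25 numbers it was 2 HFD-only and 9 LFD-only tRFs. The 9 were tRF00022694 with tRF00022711, tRF00041805 with tRF00041822 and tRF00041825, tRF00053134 with tRF00053155, and tRF00054429 with tRF00054444, some of them named after their values were seen. The median distance to the next member of the same diet was 835.5 numbers for HFD-only and 930.0 for LFD-only tRFs. Within 25 numbers of a member of the other diet lay 1 HFD-only and 1 LFD-only tRF, and within 100 numbers 5 of each. The HFD-only tRF00052218 had 8, 5 and 0 counts in HFD against 0 in each LFD library. The LFD-only tRF00052222, 4 numbers after it, had 0 counts in each HFD library against 0, 5 and 29 in LFD. This pair was chosen after its values were seen. Between them, tRF00052221 had 42, 3 and 3 counts in HFD, against 8, 126 and 304 in LFD. Near the most abundant tRFs, the HFD-only tRF00006768 and tRF00006886 lay within 100 numbers of tRF00006830, and the LFD-only tRF00041805, tRF00041822 and tRF00041825 within 100 numbers of tRF00041773, while no member lay that close to tRF00040412. In 4 cases, 2 HFD-only and 2 LFD-only pairs, members with numbers far apart had the same counts in all 6 libraries, and each such pair had at most 22 counts.

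The tRFs numbered next to the LFD-only members were mostly lower in HFD themselves. For each member, the counts of the tRFs up to 10 numbers away on either side were summed without the 81 members, a comparison chosen after the data were seen and made on the same libraries. These neighbors were lower in HFD than in LFD, by pooled CPM, for 41 of 48 LFD-only tRFs (85.4%), beside 69.9% of the 4211 other tRFs with at least 5 counts in 2 LFD libraries. The median log2 ratio of the neighbors (HFD over LFD) was −1.70 for the LFD-only tRFs and −0.89 for those other tRFs. For the HFD-only tRFs the neighbors were higher in HFD for 21 of 33 (63.6%), beside 34.7% of the 4397 other tRFs with at least 5 counts in 2 HFD libraries, with median log2 ratios of 0.40 and −0.64. With the mean of the library CPM in place of pooled counts, this was 44 of 48 lower (beside 78.8%) and 13 of 33 higher (beside 24.5%), so that most neighbors of the HFD-only tRFs were then lower in HFD.

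Some neighbors shared the absence or nearly so. The most abundant neighbor was at 0 in HFD for 2 of 48 LFD-only tRFs, and at 0 in LFD for 1 of 33 HFD-only tRFs. tRF00001806, next to tRF00001807, had 0 counts in each HFD library, against 3, 24 and 2 in LFD. tRF00020769, next to tRF00020768, had 0 counts in each HFD library, against 0, 0 and 28 in LFD. The neighbors named here were picked after their values were seen. tRF00022693, next to tRF00022694, had 2, 0 and 0 counts in HFD, against 2, 36 and 282 in LFD. tRF00022710, next to tRF00022711, had 1 count in each HFD library, against 0, 16 and 138 in LFD. Elsewhere an abundant neighbor was well counted on both diets. tRF00041824, next to tRF00041825, had 25834, 3129 and 14809 counts in HFD, against 7892, 73074 and 502890 in LFD. On the HFD side, tRF00047347 next to tRF00047346 had 1008, 1013 and 2269 counts in HFD, against 77, 134 and 191 in LFD. The most abundant neighbor was 1 number away for 14 of 48 LFD-only tRFs, in 12 of these 1 number before the member, and all 14 were lower in HFD by pooled CPM. Among the other tRFs with at least 5 counts in 2 LFD libraries, the most abundant neighbor was 1 number away for 30.3%. It was 1 number away for 3 of 33 HFD-only tRFs, all 3 higher in HFD, and for 29.4% of the other tRFs on the HFD side. If a member had kept its share of the counts of its neighbors, 27 of 33 HFD-only tRFs would have had at least 3 counts in LFD (median over the 33, 8.25) and 45 of 48 LFD-only tRFs at least 3 counts in HFD (median over the 48, 15.3). The value for tRF00022694 was 62.4 counts, below the 292 at its pooled share, and for tRF00041825 it was 11.8, below 129. For tRF00022168, by contrast, it was 63.8, above 14.7 at the pooled share. All these values use the counts that chose the members, so they are a description only.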

How the data were processed

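The authors deposited raw counts, whole numbers of reads per tRF and library for tRFs 1 to 65535, with no normalization. Per the labels, small RNA was cut from a gel and sequenced on an Illumina instrument. The submitters' processing notes name the rat build Rnor_5.0, whereas how reads were aligned, annotated and shared out among similar tRNAs is not given in the sources used here. Near-identical tRNA copies make the split of such reads between tRFs uncertain.

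The rule was applied to the raw counts in Python 3.11.15. CPM used the column totals. edgeR 4.0.16 (at least 10 counts in 3 libraries, TMM, quasi-likelihood, Benjamini-Hochberg adjustment) and DESeq2 1.42.0 were fitted across the table in R 4.3.3 and were both tested on simulated counts with known changes. The members, the rule and the lists were chosen with earlier results of these data known. Named tRFs were, per diet, the 8 with the highest mean CPM, the first, last and highest of the 3 largest runs of numbers (gaps of at most 10), the highest single count, and the lowest-numbered at the threshold. Alternatives were the thinning of the libraries (seeded draws without replacement), other minimums, other gaps, scalings, a replicate block and each library left out.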

Additional observations from a re-analysis of the deposited data

How the results depend on the processing

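The 33 HFD-only tRFs became 162 and 3 with a minimum of 3 and 10 counts, 1 with a minimum of 1 CPM, 1 after thinning, 3 and 253 when all 3 libraries or 1 library had to reach 5 counts, and 127 with at most 1 count in LFD. The 48 LFD-only tRFs became 158 and 9, 51, 66.5, 1 and 642, and 118 under the same settings. With each library left out in turn, the counts ran from 3 to 101 and from 1 to 189. Keeping tRF00043550 to tRF00043699 left 33 and gave 49, the added one being tRF00043608 with 0 counts in each HFD library against 0, 13 and 79 in LFD, and identical rows counted once gave 31 and 46. A looser or stricter rule asks for fewer or more counts by construction; beyond that the cause was not tested. The 4 members within 10 numbers of another became 4, 11 and 2 with gaps of at most 5, 25 and 1, and 6 to 50 with a library left out, 50 without HFD 1, where the rule gave 189 LFD-only tRFs. The neighbors of the HFD-only tRFs were higher in HFD for 13 with the mean of library CPM, 19 and 22 with windows of 5 and 25 numbers, and 15 to 22 of 33 with a library left out; those of the LFD-only tRFs were lower in HFD for 40 to 46 of 48 under the same settings. edgeR called 0 members with RLE scaling and with each library left out (0 to 0), where at most 1 member, tRF00047346, was tested and none without HFD 1, HFD 2 or HFD 3. It called 5 without a count minimum, and DESeq2 called 1. The fit with a replicate block called 0 as well, with 238 tRFs at an unadjusted p under 0.05 beside 651. Same-numbered libraries deviated in opposite directions (correlations of deviations −0.40, −0.30 and −0.17). Libraries of unlike number were not compared, so these values cannot tell whether the numbers pair the libraries. The mean CPM of named members moved with single libraries, such as that of tRF00022694, which was 1.13 without LFD 3 beside 5.93, and that of tRF00039936, which was 0.366 without HFD 1 beside 1.17.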
